A study of Mus musculus with 32 samples.

Results

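The genes described here are Dppa2, Dppa4, Nelfa and Smarca5, 4 of the 55385 genes counted in the RNA libraries, taken by name because each has been reported to act upstream of Dux. They were followed through 16 libraries of mouse embryos in 8 groups of 2. All embryos were wild type and came from in vitro fertilization of oocytes and sperm of B6D2F1/J mice 6 to 8 weeks old, and each library was made from total RNA of pooled embryos with a stranded, random-primed kit. Zygotes, early 2-cell embryos and late 2-cell embryos were cultured in the solvent DMSO or in A-485 (10 µM), which blocks the acetyltransferase activity of CBP and p300, from 4 to 20 h after fertilization. Zygotes were collected while still in the drug, so their exposure was shorter. The late 2-cell embryos of the A-485 group had therefore been out of the drug since 20 h. In a separate pair of groups, late 2-cell embryos were cultured with 50 nM TSA, an inhibitor of histone deacetylases, from 8 to 28 h, or with DMSO. ATAC-seq peak lists, which give the open chromatin regions, came from the early 2-cell and the late 1-cell stage, each with DMSO or A-485.

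Dux is a homeobox transcription factor made briefly at the onset of zygotic transcription, and it switches on genes of the 2-cell program such as the Zscan4 cluster. Dppa2 and Dppa4 are paired SAP-domain chromatin proteins that bind CG-rich promoters, are needed for Dux expression in embryonic stem cells and lie next to each other in the genome. Nelfa is a subunit of the negative elongation factor NELF, which holds RNA polymerase II just after initiation. It has been described as a maternal factor that works with the topoisomerase Top2a at Dux. Smarca5, also called SNF2H, is the ATPase of several ISWI chromatin remodelers, which space nucleosomes.

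Total expected counts ran from 13206138 to 32585957 per library. The late 2-cell A-485 libraries were the shallowest, at 13206138 and 14922943, and carried 19.5% and 20.7% mitochondrial counts against 4.34 to 16.3% in the other libraries, and whether this moves the values of that group beyond its scaling was not tested. All 7 embryo marker genes reached 1 FPKM (fragments scaled to transcript length and library size), with a summed level of 1207 to 4169 FPKM. The summed level of 3 markers of the 2-cell stage was 219 to 238 FPKM in early 2-cell DMSO libraries, 1.88 to 1.89 FPKM with A-485, 22.8 to 28.6 FPKM in late 2-cell A-485 libraries and 220 to 254 FPKM in TSA libraries. Cumulus cell markers summed to at most 3.25 FPKM, fibroblast markers to at most 2.64 FPKM and sperm markers to at most 18.8 FPKM. Erythroid markers summed to at most 4.71 FPKM except in the TSA libraries, at 44.6 and 46.8 FPKM, most of it from the hemoglobin gene Hba-a2, and 2 of these 6 markers were at 0 in all 16 libraries. The part of these cells in the results below was not tested.

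The promoter sequences of Nelfa and Smarca5 and those of a pair of open chromatin peaks at Dppa4 are shown here because Dppa2 and Dppa4 proteins favor CG-rich DNA. The peaks are not promoter windows like the former, and no sequence at the Dppa2 start is shown. In the RefSeq promoter table of GRCm38.p6, 2 of the 4 genes matched, Nelfa and Smarca5, and Dppa2 and Dppa4 are missing from it. Printed below are the stretch upstream of the Nelfa start (chr5:33936414-33936521, minus strand), the stretch upstream of the Smarca5 start (chr8:80739498-80739709, minus strand), the center of an early 2-cell ATAC-seq peak just before Dppa4 (chr16:48283257-48283556, plus strand) and the center of the strongest peak upstream of Dppa4 (chr16:48261484-48261783, plus strand). They run 5′ to 3′, and capitals mark each CG dinucleotide.
Nelfa promoter: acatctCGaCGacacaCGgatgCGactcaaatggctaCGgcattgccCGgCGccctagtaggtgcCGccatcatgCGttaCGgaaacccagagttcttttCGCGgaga
Smarca5 promoter: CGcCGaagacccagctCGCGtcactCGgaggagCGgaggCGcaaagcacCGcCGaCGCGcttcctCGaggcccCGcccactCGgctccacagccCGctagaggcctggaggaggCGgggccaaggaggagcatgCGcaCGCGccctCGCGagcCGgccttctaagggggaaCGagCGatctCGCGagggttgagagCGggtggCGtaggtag
Peak before the Dppa4 start: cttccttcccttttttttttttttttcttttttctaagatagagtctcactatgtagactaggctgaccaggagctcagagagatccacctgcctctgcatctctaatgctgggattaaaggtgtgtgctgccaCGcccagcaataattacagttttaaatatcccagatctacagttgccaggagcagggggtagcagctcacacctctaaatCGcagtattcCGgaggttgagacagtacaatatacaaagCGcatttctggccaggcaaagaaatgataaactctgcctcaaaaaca
Strongest peak upstream of Dppa4: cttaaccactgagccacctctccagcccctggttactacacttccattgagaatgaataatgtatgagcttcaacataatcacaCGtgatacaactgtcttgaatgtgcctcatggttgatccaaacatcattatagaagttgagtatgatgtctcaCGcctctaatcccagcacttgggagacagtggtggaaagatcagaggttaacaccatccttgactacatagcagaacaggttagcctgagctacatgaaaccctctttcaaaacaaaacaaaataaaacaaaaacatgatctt
The 300-base promoter windows run past the annotated start into the gene. The printed stretches, 108 bases for Nelfa and 212 for Smarca5, are their upstream parts, so the counts below cover bases not shown. Over the whole 300-base window of each promoter, Nelfa held 36 CG dinucleotides and Smarca5 held 32, against a median of 7 over 32851 RefSeq promoters, of which 6.23% held at least as many as Nelfa and 9.52% at least as many as Smarca5. The peak before Dppa4 held 4 and the strongest upstream peak held 2, against a median of 5 over the windows of 27693 early 2-cell DMSO peaks. G and C made up 65.3% of the Nelfa window and 67.7% of the Smarca5 window, but 43.7% and 41.0% of the peak windows at Dppa4. A GC box (GGGCGG on either strand) occurred 2 times in the Nelfa window and 1 time in the Smarca5 window, where 35.7% of all promoters hold it, and 0 times in the peak windows, where 21.1% of all windows hold it. The GC boxes of Nelfa are not within its printed stretch. The letters of the CCAAT box were in none of the 4 windows on either strand, and 37.4% of promoters hold them. Neither the nuclear receptor half-site AGGTCA, held by 16.3% of promoters, nor the TATA box, held by 13.6%, was found in any window. The TATA box was searched as TATAAA. The peak windows at Dppa4 were soft-masked as repeats over 53% and 53.7% of their bases, the Nelfa window over 0% and the Smarca5 window over 5.33%.

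Levels of the 4 genes followed different courses. Dppa2 and Smarca5 were highest in late 2-cell DMSO embryos, Dppa4 rose at each step of DMSO culture (the earlier of them not under mitochondrial scaling), and Nelfa was highest in zygotes. The highest group mean was 9.77 times the lowest for Dppa2, 222 times for Dppa4, 2.84 times for Nelfa and 2.71 times for Smarca5 in FPKM. By counts scaled to library sizes corrected for composition, these ratios were 11.0, 142, 2.98 and 3.35 in the same order. The FPKM of Dppa4 is divided by an effective length that varied between libraries, as described below. Smarca5 had the highest FPKM of the 4 genes in each group except the late 2-cell DMSO groups, in which Dppa4 was highest. This rank of Dppa4 depends on its effective length. Values with an error are mean ± SD over 2 libraries. Nothing in the sources says that the libraries of a group came from separate cultures, so p-values measure the spread between libraries, which may be technical. The tests are edgeR quasi-likelihood tests with Benjamini-Hochberg adjustment over all genes tested. A gene is called changed, and is said to have risen or fallen, at an adjusted p under 0.05, a change of at least 2-fold and a mean of at least 1 FPKM in a group compared. For a single gene, an exact permutation test of 2 against 2 libraries cannot give a p below 0.333. Because each library is a bulk sample, fewer embryos or cells at a given stage and less RNA per embryo cannot be told apart.

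**Figure D1:**
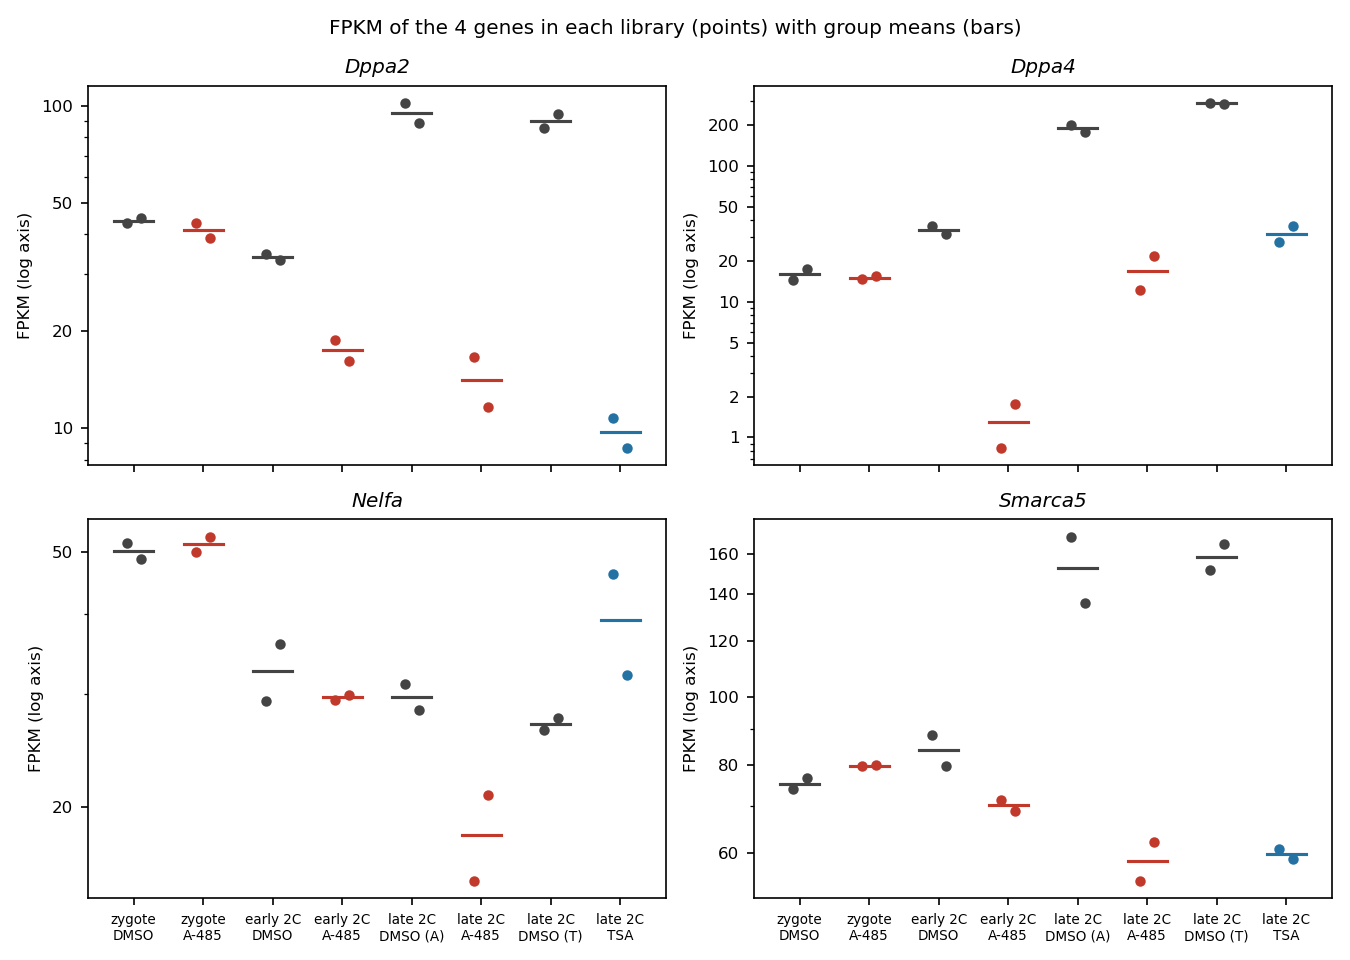
FPKM on a log axis of Dppa2, Dppa4, Nelfa and Smarca5 in each library (points) with the group mean (bar), for zygotes, early 2-cell (2C) and late 2-cell embryos, with DMSO (A) and DMSO (T) for the controls of the A-485 and TSA experiments. Dppa2 and Smarca5 reach their highest levels in both late DMSO groups, Dppa4 falls to 0.84 and 1.75 FPKM in early 2-cell A-485 libraries, and Nelfa is highest in zygotes.

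Dppa4 (ENSMUSG00000058550.15, chr16:48283733-48294237, plus strand, GRCm38) was the 1 gene of the 4 called with A-485 in early 2-cell embryos. Its level was 14.4 and 17.4 FPKM in zygote DMSO libraries and 14.7 and 15.4 FPKM in zygote A-485 libraries. In early 2-cell embryos it was 36.1 and 31.4 FPKM with DMSO and 0.84 and 1.75 FPKM with A-485, which rest on 406 and 340 against 24 and 21 expected counts. The zygote groups overlap, whereas each early 2-cell A-485 library lay far below each DMSO library and also below each zygote library. The early 2-cell change was -4.12 ± 0.30 on the log2 scale (SE, adjusted p = 1.01e-06), a 17.4-fold decrease. At that stage 7.9% of all genes tested were called lower and 0.402% were called higher.

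In late 2-cell embryos Dppa4 was at 199.7 and 178 FPKM in the DMSO libraries of the A-485 experiment, against 12.1 and 21.6 FPKM in A-485 libraries. It was at 289 and 287 FPKM in the DMSO libraries of the TSA experiment, against 27.3 and 36.2 FPKM in TSA libraries. Expected counts are not divided by a transcript length, but still depend on it and on library depth. They were 2448 and 1924 against 168 and 152 with A-485, and 3718 and 3707 against 385 and 410 with TSA. Scaled to library sizes corrected for composition (TMM, over all 16 libraries), they were 113 and 102 CPM against 11.8 and 9.62 CPM with A-485. In the TSA experiment they were 147 and 160 CPM with DMSO against 18.5 and 19.0 CPM with TSA. The groups do not overlap in either pair. The late 2-cell change was -3.36 ± 0.19 with A-485 (adjusted p = 5.99e-08) and -3.16 ± 0.10 with TSA (adjusted p = 5.98e-09). Of all genes tested, 16.8% were called lower with A-485 and 13.9% with TSA, and 10.5% and 13.8% were called higher. The effective length that the FPKM of Dppa4 is divided by varied from 470 to 1281 bases between libraries, so its FPKM carries this variation and its counts are not divided by it. A retained-intron transcript of 408 bases is annotated beside the coding ones, and whether it accounts for the variation was not tested. In order of group mean FPKM, both late DMSO groups came highest and apart, early 2-cell DMSO overlapped with TSA, late A-485 overlapped with the zygotes, and early 2-cell A-485 was lowest and apart. By the composition-corrected CPM, TSA came before early 2-cell DMSO. On that scale late A-485, at 10.7 ± 1.52 CPM (mean ± SD, n = 2), did not overlap with the zygotes, at 8.78 ± 0.65 CPM with DMSO.

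Dppa2 (ENSMUSG00000072419.5, chr16:48303908-48319723, plus strand), the partner of Dppa4, starts 20.2 kb downstream of it. Its level was 43.3 and 44.8 FPKM in zygote DMSO libraries against 43.4 and 38.8 FPKM with A-485, groups that overlap. In early 2-cell embryos it was 34.7 and 33.4 FPKM with DMSO against 18.8 and 16.1 FPKM with A-485. Each early A-485 library was below each DMSO library, and the change of -0.92 ± 0.13 (adjusted p = 0.00028) was just under the 2-fold limit, which it passed without early 2-cell A-485 replicate 1 (-1.03).

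Late 2-cell Dppa2 levels were 102 and 88.7 FPKM in the DMSO libraries of the A-485 experiment against 16.6 and 11.6 FPKM with A-485. They were 85.4 and 94.6 FPKM in the DMSO libraries of the TSA experiment against 10.8 and 8.70 FPKM with TSA, the lowest group mean of the 8, 9.75 ± 1.48 FPKM (SD, n = 2). Dppa2 fell by 2.99 ± 0.19 on the log2 scale with A-485 (adjusted p = 1.30e-07) and by 3.59 ± 0.12 with TSA (adjusted p = 7.79e-09). The late DMSO groups overlap with each other and lie above all other libraries, and the treated late groups lie below all zygote and early DMSO libraries.

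Smarca5 (ENSMUSG00000031715.14, chr8:80698507-80739497, minus strand) fell with both inhibitors in late 2-cell embryos and was not called in either earlier A-485 comparison. Its TSA call was lost when near-identical copies, described below, were summed with it (-0.80). It was at 73.9 and 76.6 FPKM in zygote DMSO libraries and 79.6 and 80.1 FPKM with A-485, and at 88.4 and 79.7 FPKM in early 2-cell DMSO libraries and 71.3 and 68.8 FPKM with A-485. Late 2-cell levels were 169 and 136 FPKM in the DMSO libraries of the A-485 experiment against 54.7 and 62.1 FPKM with A-485, and 152 and 165 FPKM in the DMSO libraries of the TSA experiment against 60.8 and 58.8 FPKM with TSA. The late treated groups overlap with each other and lie below all other libraries of this gene. Its late changes were -1.69 ± 0.13 with A-485 (adjusted p = 8.35e-07) and -1.76 ± 0.06 with TSA (adjusted p = 7.76e-09). The early 2-cell groups did not overlap, but the change of -0.23 ± 0.08 did not pass (adjusted p = 0.0921).

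Nelfa (ENSMUSG00000029111.7, chr5:33897916-33936413, minus strand) was called in none of the 4 inhibitor comparisons. It was at 51.5 and 48.7 FPKM in zygote DMSO libraries and 50.0 and 52.8 FPKM with A-485, and at 29.3 and 36.0 FPKM in early 2-cell DMSO libraries and 29.3 and 29.9 FPKM with A-485. Both pairs of groups overlap. Late 2-cell levels were 31.1 and 28.3 FPKM in the DMSO libraries of the A-485 experiment and 15.3 and 20.9 FPKM with A-485, and 26.4 and 27.5 FPKM in the DMSO libraries of the TSA experiment and 46.2 and 32.2 FPKM with TSA. In order of group means the zygotes came highest, followed by TSA, which overlapped with early 2-cell DMSO, and late A-485 was lowest and apart from all others. The late A-485 libraries were thus below and the TSA libraries above their controls. The late A-485 change of -0.90 ± 0.19 passed the adjusted p (0.00273) and not the 2-fold limit, which it passed without late 2-cell A-485 replicate 2 (-1.13) and with mitochondrial scaling (-1.53). The TSA change of 0.20 ± 0.14 did not pass (adjusted p = 0.291), and its direction rests on TSA replicate 1, without which it was -0.066.

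In zygotes, where 0.0657% of genes tested were called lower and 0.00548% higher with A-485, none of the 4 genes passed. Their changes were -0.09 ± 0.09 for Dppa2, -0.12 ± 0.19 for Dppa4, 0.04 ± 0.07 for Nelfa and 0.08 ± 0.06 for Smarca5 on the log2 scale, with adjusted p of 0.955 to 0.997. Dux itself, listed as Duxf3 in the annotation used, was at 7.23 and 6.81 FPKM in these DMSO libraries and 0.22 and 0.27 FPKM with A-485, a change of -4.67 (adjusted p = 7.29e-06). In the early 2-cell embryos, where Dppa4 was lowest, Duxf3 was at 5.16 and 4.92 FPKM with DMSO and 4.88 and 3.57 FPKM with A-485, groups that do not overlap, and the change did not pass (-0.24, adjusted p = 0.667). With TSA, where Dppa2, Dppa4 and Smarca5 were all lower, Duxf3 was at 17.2 and 20.0 FPKM against 5.69 and 3.31 FPKM, a change of 1.65 (adjusted p = 0.000165). In late A-485 embryos it was at 6.04 and 9.56 FPKM against 3.22 and 4.29 FPKM (adjusted p = 0.0771). Whether the levels of the 4 genes bear on that of Duxf3 was not tested, and these libraries do not measure their proteins.

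**Figure D2:**
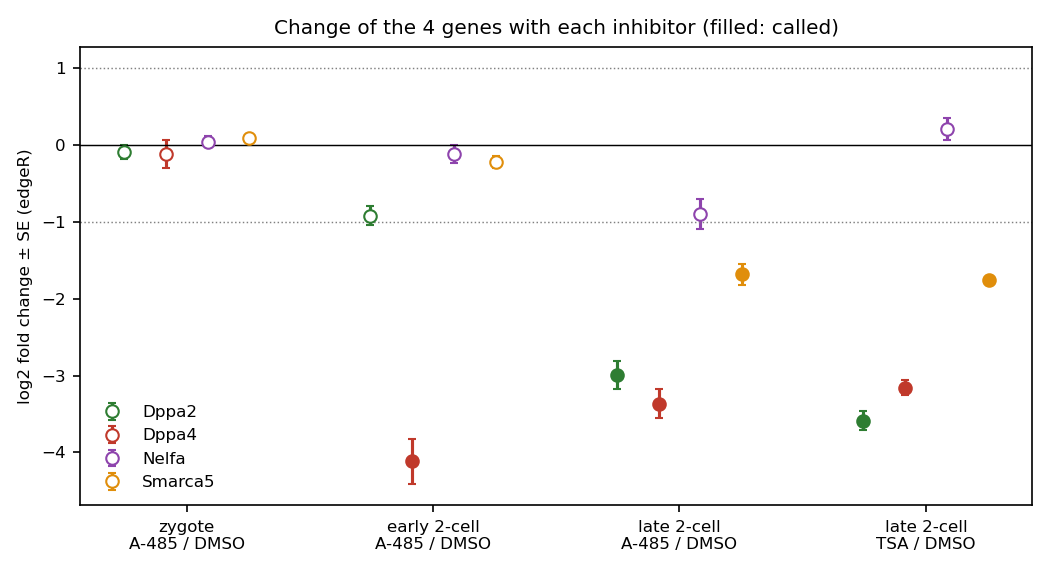
Change of Dppa2, Dppa4, Nelfa and Smarca5 in 4 inhibitor comparisons as log2 fold change ± SE (edgeR), filled where called, with dotted lines at the 2-fold limits. The 4 zygote values lie near 0, Dppa4 alone is called in early 2-cell embryos at -4.12, and Dppa2, Dppa4 and Smarca5 are called in late 2-cell embryos with A-485 and with TSA, between -1.69 and -3.59, the TSA value of Smarca5 being -0.80 and not called with its near-identical copies summed.

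The size of the A-485 change differed between stages, tested as an interaction in a model over both stages. Between zygotes and early 2-cell embryos it differed for Dppa4 by -3.94 ± 0.37 (adjusted p = 4.30e-07) and for Dppa2 by -0.78 ± 0.16 (adjusted p = 0.00261), the latter under 2-fold and not called, whereas Smarca5 (-0.26) and Nelfa (-0.11) did not pass. Between early and late 2-cell embryos it was more negative late for Dppa2 by -1.99 ± 0.22 (adjusted p = 1.80e-07), for Smarca5 by -1.38 ± 0.16 (adjusted p = 3.02e-07) and for Nelfa by -0.70 ± 0.23 (adjusted p = 0.0298), under 2-fold and not called. For Dppa4 the difference of 0.83 ± 0.31 did not pass (adjusted p = 0.0623). Over all genes tested, 4.0% were called in the former interaction and 15.0% in the latter. The late TSA and A-485 changes, each against its own DMSO libraries, differed for Nelfa by 1.21 ± 0.25 (adjusted p = 0.00185), a call lost without late 2-cell TSA replicate 1 (0.93) and without late 2-cell A-485 replicate 1 (0.99), where 13.5% of all genes tested were called. They did not pass for Dppa2 (-0.48 ± 0.22), Dppa4 (0.32 ± 0.20) or Smarca5 (0.03 ± 0.15).

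The course over DMSO culture was different for each gene, and its consecutive steps share the early 2-cell libraries. No label gives a batch or date, so a difference between stages cannot be told apart from a difference between library batches. From zygote to early 2-cell embryos Dppa4 rose by 1.01 ± 0.21 (adjusted p = 0.00129). This call was lost without early 2-cell DMSO replicate 1 (0.86), without zygote DMSO replicate 1 (0.94), with total-count scaling (0.92) and with no filter on low counts (0.997), and the direction turned when libraries were scaled to their mitochondrial counts (-0.26). Nelfa was lower by -0.53 ± 0.11 and Dppa2 by -0.32 ± 0.10, and Smarca5 was higher by 0.23 ± 0.08, all under 2-fold with adjusted p of 0.00105, 0.0234 and 0.0298, and Smarca5 also turned with mitochondrial scaling (-1.05). At this step 14.9% of genes tested were called lower and 11.2% higher. From early to late 2-cell embryos Dppa4 rose by 2.58 ± 0.17 (adjusted p = 2.49e-07) and Dppa2 by 1.49 ± 0.14 (adjusted p = 3.43e-06), among 15.9% of genes called higher and 8.92% called lower. Smarca5 was higher by 0.85 ± 0.13 (adjusted p = 0.000203), and reached 1.04 and the 2-fold limit without replicate 2 of the late DMSO libraries of the A-485 experiment, and Nelfa did not pass (-0.15 ± 0.15).

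In A-485 embryos the same steps were tested on their own, and their differences from DMSO culture are the interactions given above. These did not pass for Nelfa and Smarca5 at the earlier step or for Dppa4 at the later step. From zygote to early 2-cell embryos Dppa4 fell by 2.89 ± 0.33 (adjusted p = 1.04e-05) and Dppa2 by 1.06 ± 0.11 (adjusted p = 4.96e-06), the latter call being lost without early 2-cell A-485 replicate 2 (-0.92) without zygote A-485 replicate 1 (-0.96) and in DESeq2 (-0.96). Nelfa was lower by -0.60 ± 0.08 and Smarca5 was at 0.01 ± 0.06, with 15.6% of genes tested called lower and 6.85% higher. From early to late 2-cell embryos, the step over which A-485 was removed, Dppa4 rose by 3.26 ± 0.43 (adjusted p = 3.36e-06), while Dppa2 was lower by -0.66 ± 0.19 (adjusted p = 0.0105) and Smarca5 by -0.69 ± 0.09 (adjusted p = 6.03e-06). The Smarca5 values depend on its near-identical copies. By counts scaled to library totals, without a test, its late step was -0.40 alone and 0.22 with copies summed. Its earlier step was -0.18 alone and 0.28 with copies summed. Nelfa fell by 1.01 ± 0.15 (adjusted p = 2.23e-05), a call lost without early 2-cell A-485 replicate 1 (-0.997) without late 2-cell A-485 replicate 1 (-0.78), with total-count scaling (-0.72) and in a fit over all 16 libraries (-0.96). At this step 7.15% of genes tested were called lower and 12.8% higher. The DMSO groups of the TSA and A-485 experiments, both late 2-cell, differed in 1.32% of genes tested, and Dppa4 was 0.49 ± 0.11 higher in the former (adjusted p = 0.0365), under 2-fold. Dppa2 (-0.02), Nelfa (-0.11) and Smarca5 (0.08) did not pass, with adjusted p of 0.768 to 0.975.

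Genes that follow each member most closely were ranked by Pearson's r of log2(FPKM + 1) over the 8 group means, among 7828 genes, as a description without a test, since the points share their libraries. Dppa2 was followed by Rpl39l (0.988), Sass6 (0.986) and Hnrnpa2b1 (0.984), and Dppa4 by the ribosomal protein genes Rpl41 (0.990), Rps18 (0.989) and Rps3a1 (0.986). Nelfa was followed by Pdxdc1 (0.987), Gm42791 (0.981) and Slc26a6 (0.975), and Smarca5 by Prps1l3 (0.989), Tpr (0.984) and Atp6v0e (0.983). Between the 4 genes, r was 0.917 for Dppa2 with Smarca5, 0.791 for Dppa4 with Smarca5 and 0.672 for Dppa2 with Dppa4. With Nelfa it was 0.131 for Dppa2, -0.0906 for Smarca5 and -0.159 for Dppa4.

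Part of the expected counts that resemble Smarca5 were assigned elsewhere in the genome. In a search made after the values were seen, 6 processed copies of Smarca5, all on chromosome 4, matched its transcript at 96.8 to 98.1% over 2871 to 3181 bases. Reads were divided between these and Smarca5 by RSEM, which estimates the most likely origin of a read that fits several places, so the split is uncertain. In this paragraph CPM are expected counts scaled to the library total, without the composition correction used for Dppa4 above. The summed copies were at 13.3 and 15.3 CPM in zygote DMSO libraries against 278 and 297 in early 2-cell DMSO libraries, where each of the 6 was called higher, by 2.82 to 5.38 on the log2 scale. Smarca5 itself was at 434 and 452 CPM in the former and 512 and 461 in the latter. Late 2-cell copies were at 670 and 732 CPM with DMSO and 723 and 975 with TSA, while Smarca5 was at 886 and 959 with DMSO and 354 and 341 with TSA. The treated and control libraries do not overlap for Smarca5 but lie close for the copies, of which none was called with TSA (-0.70 to 0.08). The copies held 2.98 to 74.1% of the sum. With Smarca5 and its copies summed, the TSA change was -0.80 (adjusted p = 2.72e-05), under 2-fold, and the late A-485 change was -1.30 and still called.

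**Figure D3:**
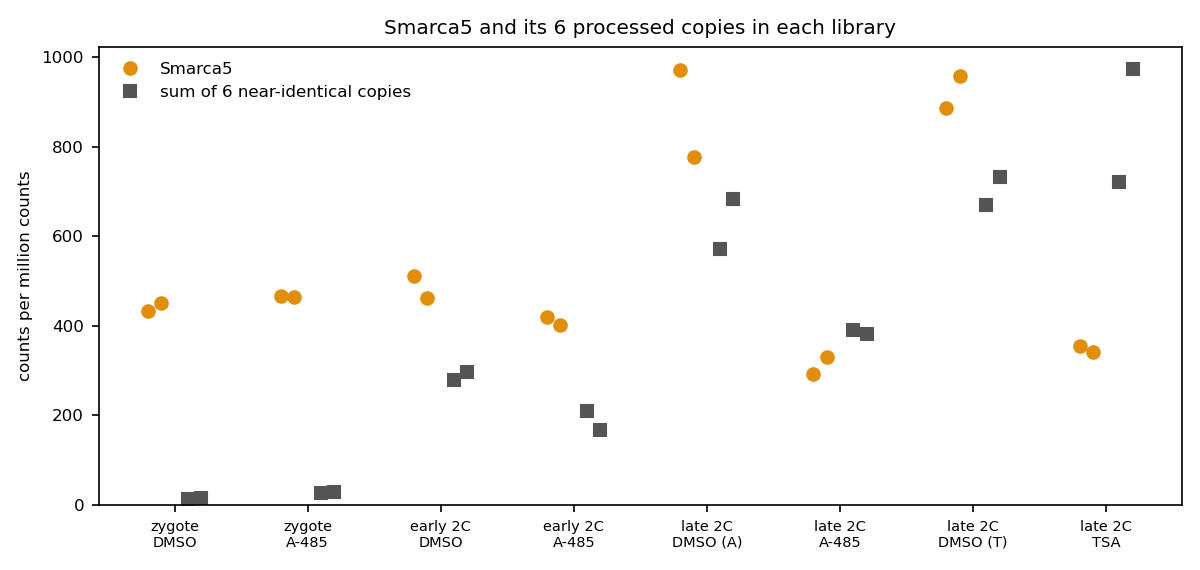
CPM (of the library total, not corrected for composition) in each library for Smarca5 (circles) and for the sum of its 6 near-identical processed copies (squares), with DMSO (A) and DMSO (T) for the controls of the A-485 and TSA experiments. The copies rise from 13.3 and 15.3 in zygote DMSO libraries to 723 and 975 in TSA libraries, where Smarca5 is at 354 and 341.

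The same search found 8 processed copies of Dppa2, of which Gm9788, alike at 99.3% over 906 bases, held 15.6 to 218 expected counts against 321 to 4573 for Dppa2, and 3 of Dppa4, of which Gm14058, alike at 98.9%, held at most 70.7. No copy of Nelfa was found, so its counts do not carry this uncertainty.

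Most partners of Nelfa fell in treated late embryos. Of 5 genes, which are Nelfa, the other NELF subunits and Top2a, all but Nelfa fell in late 2-cell A-485 embryos, 4 in all, against 16.8% of all genes tested, and 3 fell with TSA (Nelfcd, Nelfe and Top2a), against 13.9%, with 0 called higher. The list's median was -2.66 with A-485, against 0.28 over all genes tested and 0.02 over those reaching 1 FPKM, and -1.55 with TSA, against 0.13 and -0.03. Nelfe, whose product binds RNA in the complex, was at 426 and 454 expected counts in late DMSO libraries and 15 and 37 with A-485, a change of -3.71 ± 0.40 (adjusted p = 1.46e-05). Nelfcd, another subunit, fell by 2.98 ± 0.35 (adjusted p = 3.44e-05), and Nelfb by 2.66 ± 0.46 (adjusted p = 0.000635). Top2a, a type II topoisomerase, was at 89.3 and 82.4 FPKM with DMSO and 37.6 and 23.9 FPKM with A-485 and fell by 1.70 ± 0.15 (adjusted p = 2.92e-06). With TSA, Nelfcd fell by 2.09, Nelfe by 1.81 and Top2a by 1.55, and Nelfb was at -0.68 (adjusted p = 0.0391).

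In early 2-cell embryos Top2a was the 1 gene of the 5 called, at -1.15 ± 0.12 (adjusted p = 3.83e-05), and the list's median was -0.26 against 0.00 over all genes tested. At that stage 7.9% of all genes tested were called lower. In zygotes none was called (median 0.04), where 0.0657% of all genes tested were called lower. Like Nelfa, the TSA change differed from the A-485 change for Nelfb (2.08, adjusted p = 0.0065) and Nelfe (2.01, adjusted p = 0.00218), and not for Nelfcd (1.00, adjusted p = 0.065). Over DMSO culture Nelfe, Nelfcd and Top2a fell into the early 2-cell stage, by 2.21, 1.40 and 1.14. Nelfe, Nelfb and Top2a then rose into the late 2-cell stage, by 2.59, 2.19 and 2.12, while Nelfa did not.

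Several subunits of the complexes that Smarca5 drives fell in the same embryos. Of 13 genes for the ISWI ATPases, Smarca5 among them, and their partner subunits, 9 fell in late 2-cell A-485 embryos, against 16.8% of all genes tested, and 6 fell with TSA, against 13.9%, again with 0 called higher. Without Smarca5, 8 of 12 fell with A-485 and 5 of 12 with TSA. The list's median was -1.11 with A-485, against 0.28 over all genes tested and 0.02 over those reaching 1 FPKM, and -0.79 with TSA, against 0.13 and -0.03. Without the composition correction of the library sizes, the counts over all 13 were 6 and 4. Baz1a, the ACF1 subunit that pairs with Smarca5, was at 107 and 92.4 FPKM in the late DMSO libraries and 12.6 and 21.6 FPKM with A-485, and fell by 3.12 ± 0.15 (adjusted p = 1.97e-08). It was also the 1 gene of the list that fell in early 2-cell A-485 embryos, by 1.05 ± 0.08 (adjusted p = 2.46e-06). Of all genes tested, 7.9% were called lower there. Rbbp7 and Rbbp4, histone-binding subunits, fell by 1.48 and 1.43 in late A-485 embryos, and Baz2a, Bptf, Rsf1, Cecr2 and Baz1b, large subunits of separate ISWI complexes, by 1.04 to 1.41.

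With TSA the changes were -2.69 ± 0.38 for Chrac1, a histone-fold subunit (adjusted p = 0.000202), -1.73 for Baz1a, -1.50 for Bptf, -1.34 for Rbbp4 and -1.33 for Baz2a, and all 5 were called with Smarca5. The other ISWI ATPase, Smarca1, was at 0.10 to 1.18 FPKM over the 16 libraries and was called in no inhibitor comparison (-0.47, -0.31, 1.13 and 0.59). Over DMSO culture 0 of the 13 were called into the early 2-cell stage, where 14.9% of all genes tested were called lower and 11.2% higher. Into the late stage Rsf1 rose by 2.12 and Baz1a by 1.23 while Rbbp7 fell by 1.48.

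**Figure D4:**
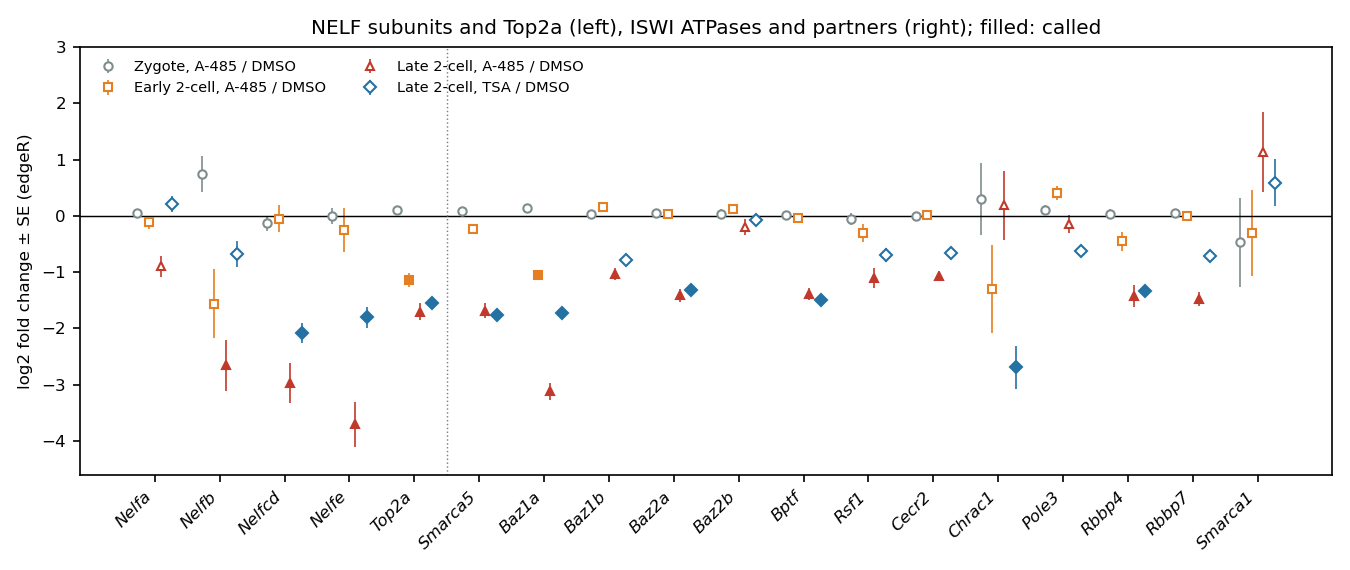
Log2 fold change ± SE (edgeR) of the NELF subunits and Top2a (left of the dotted line) and the ISWI ATPases and partners (right) in 4 inhibitor comparisons, filled where called. The zygote points are all open and the late 2-cell A-485 points of 13 of the 18 genes and the TSA points of 9 are filled and below 0, whereas those of Nelfa are open.

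Of 3 other genes with Dppa symbols, which are named for expression in pluripotent cells and are not of the Dppa2 and Dppa4 family, Dppa3 and Dppa5a fell in late 2-cell embryos with both inhibitors. At that stage 16.8% of all genes tested were called lower with A-485 and 13.9% with TSA. Dppa3, a maternal protein that guards oocyte DNA methylation, was at 1205 and 987 FPKM with DMSO and 220.4 and 266 FPKM with A-485, and changed by -2.41 with A-485 and -1.75 with TSA. Dppa5a changed by -2.89 and -2.19, and neither gene was called in zygotes or early 2-cell embryos. Of 5 other reported regulators of Dux or of early zygotic transcription (Trp53, Nfya, Patz1, Yap1 and Pias4), 0 were called with A-485 in zygotes or early 2-cell embryos. Of all genes tested, 0.0657% were called lower and 0.00548% higher in zygotes, and 7.9% and 0.402% in early 2-cell embryos. The count of 0 of 5 thus does not set these genes apart. Nfya, a subunit of the CCAAT-binding factor NF-Y, fell in late embryos by 2.11 with A-485 and 1.70 with TSA, and Pias4, a SUMO ligase described as a repressor of Dux, by 1.80 and 1.61. In DMSO culture, both had fallen from zygote to early 2-cell embryos, by 1.79 and 1.77 in that order.

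The 2-cell program was followed as 17 genes, Duxf3 and 16 others of the Zscan4, Tcstv, Tdpoz and Usp17 families with Zfp352. With A-485, 3 of 13 tested fell in zygotes, where 0.0657% of all genes tested were called lower (median -2.83, against -0.01 over all genes tested). In early 2-cell embryos 16 of 17 fell, against 7.9% of all genes (median -6.46, against 0.00). In late 2-cell A-485 embryos 14 of 17 fell, against 16.8% of all genes (median -2.35, against 0.28). Duxf3 was not among these 14, at 0.89, and was called higher there under total-count scaling. With TSA, 10 of 17 rose, against 13.8% of all genes, and 0 fell (median 1.20, against 0.13). Zscan4d, a member of the Zscan4 cluster, was at 76.1 and 63.7 FPKM in early 2-cell DMSO libraries and 0.48 and 0.06 FPKM with A-485. It was at 12.9 and 13.4 FPKM in late DMSO libraries and 27.1 and 21.1 FPKM with TSA. Of the 17 genes, 16 had a TSA change higher than their A-485 change by the interaction test, against 2868 of all 26554 genes tested. Many of these genes lie in near-identical arrays, so the counts of single genes are uncertain.

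Neighbors of the 4 genes were examined within 250 kb. Beside Dppa2 and Dppa4, Morc1, which starts 127.3 kb from the Dppa2 start, was called in no inhibitor comparison of the 2-cell stages, with -0.15 in early A-485 embryos, 0.38 in late A-485 embryos and -0.29 with TSA. The other neighbor, Gm5485, stayed at or under 0.555 FPKM. Nsd2, whose annotated end overlaps that of Nelfa on the opposite strand, was at 32.9 to 49.7 FPKM over the groups and was called in no inhibitor comparison; whether reads were counted by strand is not given in the sources used here. Of the genes farther from Nelfa, Haus3 fell by 1.61 in late A-485 embryos (adjusted p = 3.17e-05), and Fgfr3, a growth factor receptor, fell by 3.35 in early A-485 embryos (adjusted p = 0.000127) and rose by 4.67 with TSA (adjusted p = 5.97e-07). Near Smarca5, Gab1 had a group mean of 0.55 to 6.69 FPKM.

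Open chromatin around Dppa4 and Dppa2 was listed in early 2-cell DMSO embryos and in no other list. Each of the 4 lists was made by the authors from both replicates together, so there is 1 list per group, no test, and a missing peak says only that none passed the caller's threshold. From 50 kb before the Dppa4 start to 50 kb past the Dppa2 end (chr16:48233733-48369723), there were 12 peaks in the early 2-cell DMSO list and 0 in each of the early 2-cell A-485, late 1-cell DMSO and late 1-cell A-485 lists. The fold enrichment of the 12 ran from 4.12 to 12.1. The lists held 27693, 13712, 10214 and 7094 peaks in the same order. With both lists of a stage cut to the same number of strongest peaks, 4 peaks lay between 2.5 and 50 kb of a start of Dppa2 or Dppa4 in early 2-cell DMSO embryos, from 12. The early 2-cell and late 1-cell lists were not cut to a common size.

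The strongest peak, at chr16:48261404-48262271, lay 21.5 kb upstream of Dppa4 at 12.1-fold (-log10 q = 62.0), and its center is the last sequence printed above. The peak just before Dppa4, at chr16:48283246-48283563, lay 170 bases from the nearest annotated start at 7.15-fold (-log10 q = 40.0), and its center is printed before it. Of the 12 peaks, 9 had a 300-base window around the summit that was mostly soft-masked (median 55.2%, range 23 to 93.7%), against 47.9% of all early 2-cell DMSO windows, with a median of 49%. They held a median of 3 CG dinucleotides per window, range 1 to 7. No list had a peak within 1 kb of a Dppa2 start.

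Nelfa and Smarca5, with their CG-rich promoters, had a different pattern. Within 1 kb of a start, Smarca5 had peaks in all 4 lists, at 6.13 and 7.08-fold in late 1-cell DMSO, 6.43-fold in late 1-cell A-485, 4.40-fold in early 2-cell DMSO and 7.72 and 6.83-fold in early 2-cell A-485 embryos. These were not all the same site. The early 2-cell DMSO peak overlapped a late 1-cell DMSO peak but no early 2-cell A-485 peak. Neither early 2-cell A-485 peak overlapped a late 1-cell A-485 peak. Nelfa had a peak over its start with A-485, at 5.16-fold in late 1-cell and 8.87-fold in early 2-cell embryos. With DMSO it had none in late 1-cell embryos and 1 in early 2-cell embryos, 951 bases upstream at 4.39-fold. In all, 1 of the 4 genes had a promoter peak in late 1-cell DMSO, 2 in late 1-cell A-485, 3 in early 2-cell DMSO and 2 in early 2-cell A-485 embryos. With both early 2-cell lists cut to equal size, the early 2-cell DMSO count of 3 was 0. Of 12387 genes, 38.3%, 37.1%, 48.5% and 57.8% had one.

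Farther out, Smarca5 had 5 peaks between 2.5 and 50 kb in early 2-cell DMSO embryos (5.44 to 13.3-fold) and 0 with A-485. Within Nelfa, a pair of peaks 27 to 29 kb past the start, whose 300-base summit windows were wholly soft-masked, was present in early 2-cell embryos with both treatments, at 13.8 and 12.2-fold with DMSO and 8.53 and 8.53-fold with A-485. The listed peaks at Dppa4, Dppa2 and the distal sites of Smarca5 were thus absent from the early 2-cell A-485 list. The pair in Nelfa was in both lists. The A-485 list held 13712 peaks against 27693 with DMSO, and how often any DMSO peak was absent from it was not tested. The paper reports that most distal peaks were lost with this inhibitor, so absence alone does not set these distal sites apart.

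**Figure D5:**
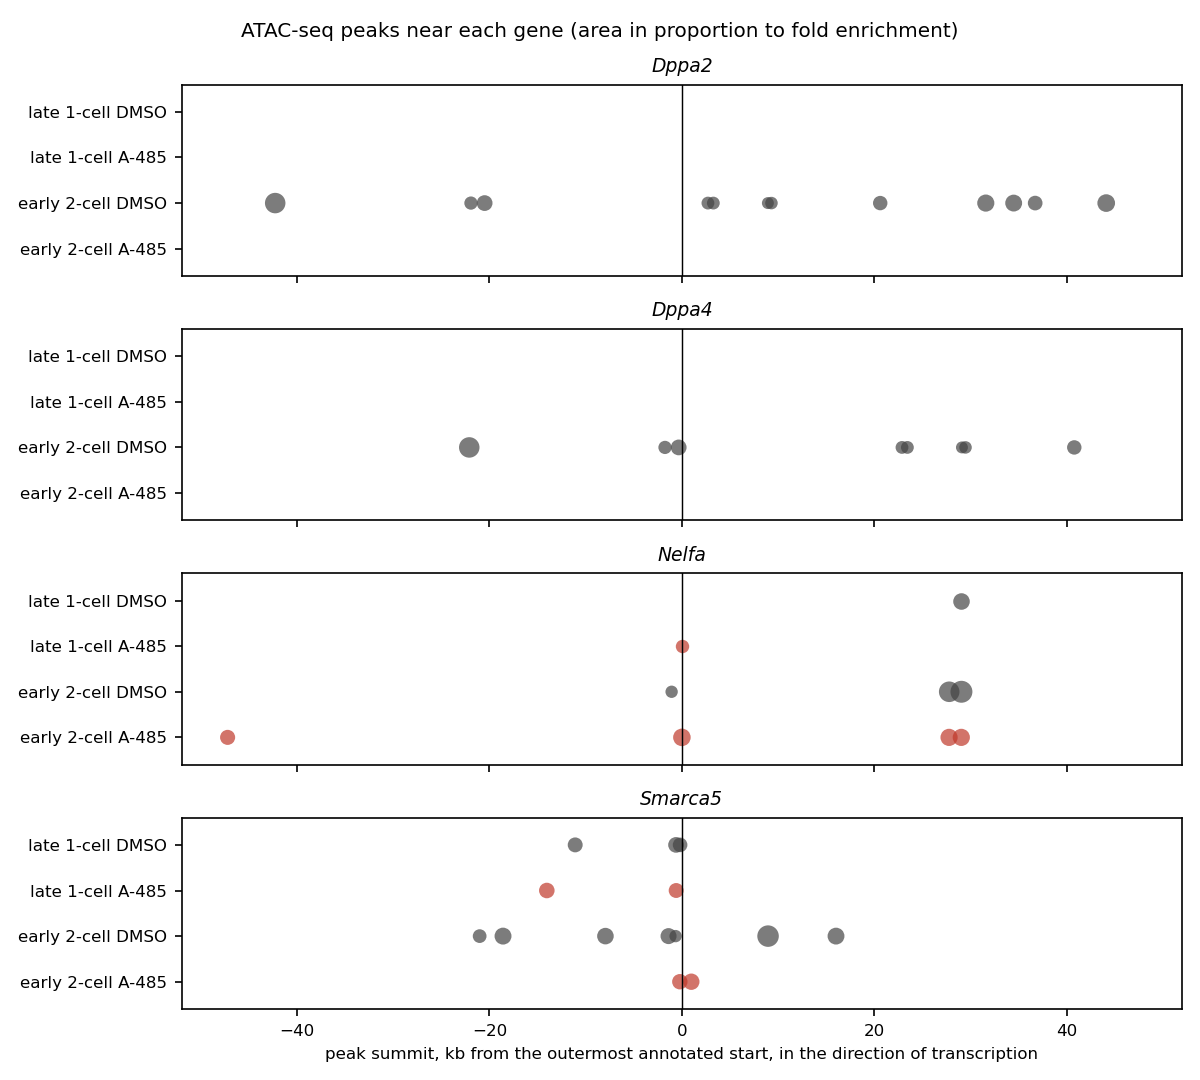
ATAC-seq peaks within 50 kb of each gene in 4 peak lists, by the distance of the summit from the outermost annotated start in kb along the direction of transcription, with point area in proportion to fold enrichment. Peaks around Dppa2 and Dppa4 appear in the early 2-cell DMSO list alone, with 12 over both genes, and peaks near the starts of Nelfa and Smarca5 appear with A-485 as well.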

How the data were processed

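Total RNA libraries of 16 embryo pools were analysed. The authors trimmed reads with Trimmomatic 0.39, mapped them to GRCm38 with STAR 2.7.8a and ran RSEM 1.3.1, and deposited expected counts per gene, the posterior standard deviation of each count and FPKM. The ATAC-seq lists deposited by the authors give for each peak a fold enrichment over background, a -log10 q and a score, from the optimal irreproducible-discovery set of both replicates; the build, GRCm38, is taken from the submitters' processing notes.

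Groups were taken from the sample labels. Gene names were matched by identifier to GENCODE M21 for 55144 of 55385 genes (241 unmatched). Expected counts were rounded and tested in edgeR 4.0.16 (R 4.3.3), with TMM scaling, genes of at least 10 summed counts and quasi-likelihood tests, fitted on the groups of each comparison. Alternatives were DESeq2 1.42.0, total-count and mitochondrial scaling, no filter, all 16 libraries in a fit, a replicate block, and each library left out. Near-identical copies summed was an alternative chosen after seeing the data. The fit was tested on simulated counts. Total depth of 13206138 to 32585957 counts per library limits Dppa4 in early 2-cell A-485 embryos, with 24 and 21 counts. Posterior SD, which is the error of assigning reads, was at most 2.16% of a count for the 4 genes. Promoter peaks lay within 1 kb of an annotated start.

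The 4 genes and all lists were chosen with earlier results of these data known. All 4 genes were named in each comparison, and from each list up to 3 of the genes called with the largest change, with further list genes chosen after their values were seen, and Smarca1, Duxf3, neighbors and copies in addition. Replicate numbers did not pair the libraries: deviations of same-numbered libraries correlated at -0.08 to 0.11, with 2 pairs each, and replicates differed beyond sampling noise (chi-square per degree of freedom 8.99 to 18.0). H3K27ac profiles and allele-resolved data were not analysed here.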

Additional observations from a re-analysis of the deposited data

Results flagged for a closer look

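The A-485 change of 5 gene and stage pairs, and the TSA against the A-485 change of 1 gene, differed between the groups compared by the edgeR interaction test. From zygotes to early 2-cell embryos, the A-485 change differed for Dppa4 by -3.94 on the log2 scale (adjusted p = 4.30e-07) and for Dppa2 by -0.78 (adjusted p = 0.00261). Both genes are SAP-domain partners, and their changes were not tested against each other. From early to late 2-cell embryos it differed for Dppa2 by -1.99 (adjusted p = 1.80e-07), for Smarca5 by -1.38 (adjusted p = 3.02e-07) and for Nelfa by -0.70 (adjusted p = 0.0298). The Smarca5 difference was -0.87 when its near-identical copies were summed with it. In late 2-cell embryos the TSA change exceeded the A-485 change for Nelfa by 1.21 (adjusted p = 0.00185), and TSA replicate 1, at 46.2 FPKM, was the highest late 2-cell library of this gene. With 2 libraries per group, no group was large enough to test a single library as standing apart.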

How the results depend on the processing

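Of 580 results under an alternative, counts of calls over all genes aside, 528 kept their direction and their side of the limits, 15 lost a call, 14 gained one and 23 changed sign; the calls of Dppa4 and Dppa2 in late 2-cell embryos with either inhibitor, and of Dppa4 in early 2-cell embryos, held in all. Scaling to mitochondrial counts moved the median of genes reaching 1 FPKM by -1.27 between zygote and early 2-cell stages with DMSO and by -1.55 with A-485, by -0.54 from early to late 2-cell with A-485, by -0.63 for late A-485, by -0.62 for late against early A-485 and by 0.50 for TSA against A-485. Under it the DMSO zygote to early 2-cell changes were -1.59 for Dppa2, -0.26 for Dppa4, -1.80 for Nelfa and -1.05 for Smarca5, and with A-485 -2.15 for Nelfa and -1.54 for Smarca5. Also under it, from early to late with A-485, Dppa2 was at -1.19 and Smarca5 at -1.23, Nelfa in late A-485 embryos at -1.53, Dppa2 at 0.013 in zygotes and -1.01 in early 2-cell embryos, Smarca5 between DMSO groups at -0.017, and the interactions at -1.02 (Dppa2, early against zygote), -1.32 (Nelfa, late against early) and 0.0020 (Dppa2, TSA against A-485).

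Total-count scaling gave Dppa4 0.92 (DMSO) and Smarca5 -0.18 (A-485) from zygote to early 2-cell and Nelfa -0.72 from early to late with A-485. It moved the median of genes reaching 1 FPKM by 0.19 for late A-485 and 0.36 for TSA. Genes called higher and lower with TSA were 4108 and 2384 under total-count scaling, from 3237 and 3247, and for late A-485 1518 and 5558 under mitochondrial scaling, from 2406 and 3824. With no filter the zygote to early 2-cell values were 1.00 for Dppa4 (DMSO) and -0.0061 for Smarca5 (A-485). One fit over all 16 libraries gave Smarca5 -0.00056 there, Nelfa -0.96 from early to late with A-485 and Dppa2 0.00058 between DMSO groups. DESeq2 gave Dppa2 -0.96 between zygote and early 2-cell stages with A-485 and Smarca5 -0.10 for TSA against A-485. With copies summed, Smarca5 was at -0.80 with TSA and -0.87 for late against early A-485, and Dppa2 at 0.0086 between DMSO groups. With a replicate block no call of the 4 genes changed (Dppa4 -4.11 in early 2-cell embryos). With both lists of a stage cut to equal numbers of strongest peaks, 0 of the 4 genes had an early 2-cell DMSO promoter peak, from 3, and 4 distal peaks remained near Dppa2 or Dppa4, from 12. Apart from what each alternative itself does, the cause was not tested.

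Leaving out 1 library moved the affected results over these ranges: Dppa2 -1.03 to -0.81 and Nelfa -0.24 to 0.015 in early 2-cell embryos; Nelfa -1.13 to -0.68 with late A-485 and -0.066 to 0.46 with TSA; Dppa4 0.86 to 1.18 between zygote and early 2-cell stages with DMSO, and Dppa2 -1.15 to -0.92 and Smarca5 -0.028 to 0.093 with A-485; Smarca5 0.64 to 1.04 from early to late with DMSO and Nelfa -1.26 to -0.78 with A-485; Dppa2 -0.16 to 0.13 and Smarca5 -0.11 to 0.28 between DMSO groups; and, for interactions, Nelfa -0.22 to 0.034, -1.04 to -0.48 and 0.93 to 1.45 and Smarca5 -0.18 to 0.22. Over all genes, the zygote count of 13 calls became 20 to 56, the DMSO comparison's 273 became 445 to 512, and the zygote to early 2-cell counts under mitochondrial scaling were 9221 and 9161, from 5259 and 4463. Depth limits low counts, such as Dppa4 in early 2-cell A-485 embryos.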
